A study of Glycine max with 16 samples.

Results

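Phenylalanine ammonia-lyase (PAL) is the enzyme that opens the phenylpropanoid pathway. It removes ammonia from phenylalanine and leaves trans-cinnamate, from which plants build lignin, flavonoids, anthocyanins, coumarins and part of their salicylic acid. In legumes such as soybean the same route feeds the isoflavonoids, which include defence compounds, and PAL transcripts are known to respond to wounding, pathogens, light and water stress. PAL is encoded by a small gene family, and the members described here are 8 genes of soybean (Glycine max) chosen by identifier from the 56044 genes of the deposited table: Glyma.10G058200, Glyma.13G145000, Glyma.19G182300, Glyma.20G180800, Glyma.03G181600, Glyma.03G181700, Glyma.02G309300 and Glyma.10G209800. The list itself is defined by gene family and not by a threshold on values, but it was drawn up with earlier results of these data known. All 8 passed the filter on low values, at least 1 RPKM in at least 2 columns, as did 34400 genes in all. The table does not pair identifiers with gene names, so the enzyme name is that of the list from which the members were taken, and what sets the single members apart in function is not known here.

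RNA was taken from trifoliate leaves of seedlings 2 weeks old, grown on soil in a greenhouse. The plants belonged to the transgenic lines A004A, A005B and B010C, in which GmWRKY54, a transcription factor gene of the WRKY family, is over-expressed, and to 1 control line (null, also named B001A). Seedlings of each line were either left in air to dehydrate for 6 h or kept well watered. The promoter of the transgene is not named in the labels. No watered group with a matching wait of 6 h is named either, so drying and elapsed time cannot be told apart. The labels list 16 samples, 2 in each of 8 groups, and the table holds 1 column for each group, so there are no replicate values within a group and the spread given below is that between lines. Whether samples sharing a group were separate plants is not stated. Values are RPKM, read numbers divided by gene length and by the mapped reads of the library, which are per length and can be set side by side between genes. In whole leaves, fewer cells of a type and less RNA per cell cannot be told apart.

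Read depth per column is unknown. The sum of RPKM over all genes lay between 636011 and 818267 per column, and between 28847 and 31333 genes reached 1 RPKM. The level of the transgene and the leaf identity of the samples were not checked, because no source at hand ties names to the identifiers. One property of the columns touches the comparisons with null. In 39 genes, null and A004A were at least 2-fold above the other lines when watered, whereas A004A and A005B were at least 2-fold above the other lines when dehydrated. The other 35 combinations of line pairs gave at most 3 genes each. In those genes the null and A005B columns of one treatment stand against those of the other, which an exchange of either the watered or the dehydrated columns of these 2 lines would also give, and which of them was not tested. The deposited labels were kept. Fits and counts that change under either exchange, an alternative chosen after seeing the data, are given beside the results, and per-line values below are those of the columns as labelled. Both exchanges pair the columns in the same way, so they give the same dehydration fit, and a change in null or A005B with exchanged columns is named below by its dehydrated column.

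In watered leaves the family was dominated by Glyma.10G058200 and Glyma.13G145000. Glyma.10G058200 stood at 160.4 RPKM in A004A, 180.2 RPKM in A005B, 244.9 RPKM in B010C and 291.2 RPKM in null. Glyma.13G145000 stood at 70.3, 82.2, 112.5 and 141.0 RPKM in the same order of lines. In both genes A004A was lowest and null highest, and the levels of Glyma.10G058200 lay above all those of Glyma.13G145000. By mean watered level Glyma.10G058200 was 360th and Glyma.13G145000 was 992nd of the 34400 genes.

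The other 6 members stood well below these 2 genes. Glyma.19G182300 averaged 21.5 ± 4.22 RPKM (SD over 4 lines) in watered leaves. Glyma.20G180800 averaged 11.3 ± 1.25 RPKM, Glyma.03G181600 7.44 ± 1.33 RPKM and Glyma.03G181700 5.24 ± 1.08 RPKM. Glyma.02G309300 averaged 4.32 ± 1.98 RPKM and Glyma.10G209800 1.72 ± 0.402 RPKM, the lowest of the family. Of the 7 pairs of neighbours in this order, Glyma.03G181600 with Glyma.03G181700 and Glyma.03G181700 with Glyma.02G309300 had ranges over lines that overlapped, and the other 5 did not.

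Dehydrated leaves held less PAL transcript in sum, spread more evenly over the family. The 8 genes together reached 177.0 RPKM in dehydrated A004A, 214.0 RPKM in A005B, 223.5 RPKM in B010C and 381.5 RPKM in null. The watered sums were 275.2 RPKM in A004A, 306.1 RPKM in A005B, 415.0 RPKM in B010C and 492.4 RPKM in null. The dehydrated sum differed from the watered sum by -35.7% in A004A, -30.1% in A005B, -46.1% in B010C and -22.5% in null, so it was lower in all 4 lines as labelled, although the ranges over lines overlapped. With the null and A005B columns exchanged in 1 treatment, the sum in dehydrated A005B would differ from its watered sum by -56.5% and that in null by 24.6%, so that 3 of 4 lines would be lower. Median-of-ratios scaling divides each column by a factor. In each line this factor was smaller in the dehydrated column (0.8457 against 1.109 in A004A, 1.025 against 1.113 in null). The falls as labelled would thus be smaller after that scaling. No test was made on a sum over chosen genes.

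**Figure D1:**
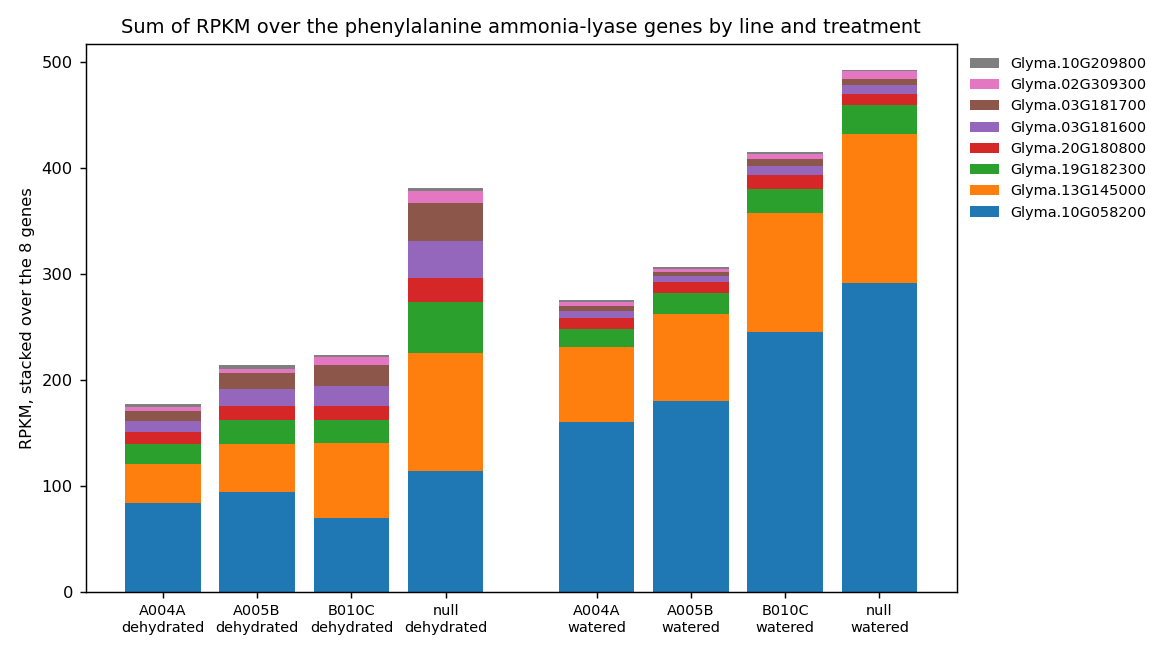
Stacked bars give the RPKM of each of the 8 PAL genes in the 4 dehydrated columns and then the 4 watered columns, so that bar height is the family sum in RPKM. The bars reach 177.0 to 381.5 RPKM in dehydrated leaves and 275.2 to 492.4 RPKM in watered leaves, and the blue and orange parts at the base, Glyma.10G058200 and Glyma.13G145000, take up less of each dehydrated bar.

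Glyma.10G058200 and Glyma.13G145000 together made up 68.4% of the family sum in dehydrated A004A, 65.2% in A005B, 62.9% in B010C and 59.1% in null. In watered leaves they made up 83.8%, 85.8%, 86.1% and 87.8% in the same order of lines. The dehydrated shares were thus below every watered share. As labelled, the summed RPKM of the other 6 genes was higher in the dehydrated than in the watered column by a factor of 1.26 in A004A, 1.71 in A005B, 1.44 in B010C and 2.59 in null. In dehydrated leaves the order by mean level was Glyma.10G058200, Glyma.13G145000, Glyma.19G182300, Glyma.03G181600, Glyma.03G181700, Glyma.20G180800, Glyma.02G309300 and Glyma.10G209800. There the ranges over lines overlapped for all neighbours but the last pair, Glyma.02G309300 and Glyma.10G209800.

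The response to dehydration was then tested in each gene with limma on log2(RPKM + 1), with terms for line and treatment, so that the spread is that of the treatment effect between the 4 lines. Adding 1 shrinks the fold changes of weakly expressed genes. The most abundant PAL gene fell, as did the second, while 4 less abundant members rose. Among all 34400 genes, 28.7% were called higher and 40.0% lower at an adjusted p under 0.05, so a call of either kind was common in these leaves. The median log2 change was 0.40 over the 8 members and -0.175 over all genes.

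Glyma.10G058200 stood at 83.7 RPKM in dehydrated A004A, 93.7 RPKM in A005B, 69.5 RPKM in B010C and 114.0 RPKM in null, against the watered 160.4 to 291.2 RPKM given above. All 4 dehydrated levels lay below all 4 watered ones, a separation in this direction that 37.5% of genes shared. The mean log2 change was -1.25 ± 0.21 (SE, limma adjusted p = 0.00108), with a lower level in 4 of 4 lines, by the most in B010C (-1.80) and then in null (-1.35). With exchanged columns the change would be -1.63 in A005B and -0.66 in null, again lower in 4 of 4. No other member had all its dehydrated levels below its watered levels.

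Glyma.13G145000 stood at 37.2 RPKM in dehydrated A004A, 46.0 RPKM in A005B, 71.0 RPKM in B010C and 111.4 RPKM in null. Dehydrated null thus lay above watered A004A and A005B, and the groups overlapped, although the level was lower in the dehydrated column of each line as labelled. The mean log2 change was -0.68 ± 0.16 (SE, limma adjusted p = 0.00726), between -0.90 in A004A and -0.34 in null. With exchanged null and A005B columns the mean is the same but the change in null would be 0.43, so that 3 of 4 lines were lower, and the adjusted p is 0.0856. Over all alternatives it lay between 0.00202 and 0.0856.

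The consecutive identifiers Glyma.03G181600 and Glyma.03G181700 had the largest rises of the family. Glyma.03G181600 stood at 10.8 RPKM in dehydrated A004A, 15.5 RPKM in A005B, 19.5 RPKM in B010C and 35.4 RPKM in null, against 6.63, 6.03, 8.84 and 8.25 RPKM in the same watered lines. Glyma.03G181700 stood at 9.68, 15.5, 19.3 and 35.7 RPKM in dehydrated leaves, against 4.84, 3.94, 6.41 and 5.76 RPKM in watered leaves, in the same order of lines. In both genes all dehydrated levels lay above all watered levels, as in 27.5% of all genes, and no other member showed this. The log2 change of Glyma.03G181600 was 1.22 ± 0.22 (SE, limma adjusted p = 0.00155), ranging from 0.62 in A004A to 1.98 in null. That of Glyma.03G181700 was 1.62 ± 0.24 (SE, limma adjusted p = 0.000604), ranging from 0.87 in A004A to 2.44 in null. With exchanged null and A005B columns both genes again had all 4 lines higher. In linear terms, as labelled, Glyma.03G181700 was 2.00 times its watered level in A004A, 3.93 times in A005B, 3.01 times in B010C and 6.20 times in null. Reads shared by near-identical copies could have been divided between family members by the authors' counting, which the sources used here do not describe, so the separate values of these neighbouring genes are uncertain.

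Glyma.02G309300 and Glyma.10G209800, the least abundant members, passed the test with smaller changes. Glyma.02G309300 stood at 3.49 RPKM in dehydrated A004A, 4.11 RPKM in A005B, 7.39 RPKM in B010C and 11.6 RPKM in null, against 3.51, 2.51, 4.16 and 7.12 RPKM in the same watered lines. It was higher in the dehydrated column of 3 of 4 lines, and in A004A the columns differed by -0.0084 on the log2 scale; with exchanged columns the change would be -0.67 in A005B and 1.84 in null, which leaves 2 of 4 lines higher. The mean log2 change was 0.47 ± 0.16 (SE, limma adjusted p = 0.0319; 0.00445 to 0.289 over the alternatives). Glyma.10G209800 stood at 2.60 RPKM in dehydrated A004A, 3.43 RPKM in A005B, 2.21 RPKM in B010C and 3.10 RPKM in null, against 1.74, 1.52, 2.27 and 1.34 RPKM in the same watered lines. It was higher in 3 of 4 lines, with B010C at -0.026, and its mean log2 change was 0.50 ± 0.18 (SE, limma adjusted p = 0.0386; 0.00519 to 0.140 over the alternatives). Neither gene kept its call without A005B or without null; Glyma.02G309300 also lost it without B010C, with exchanged null and A005B columns and with no filter, and Glyma.10G209800 without A004A and with no filter.

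Glyma.19G182300 and Glyma.20G180800 did not pass the test, and null stood apart from the transgenic lines in both. Glyma.19G182300 stood at 18.2 RPKM in dehydrated A004A, 22.8 RPKM in A005B, 21.7 RPKM in B010C and 48.2 RPKM in null, against 17.3, 19.1, 22.7 and 26.8 RPKM in the same watered lines. The log2 change was 0.82 in null and between -0.064 and 0.24 in the transgenic lines, with a mean of 0.27 ± 0.18 (SE, limma adjusted p = 0.209). Glyma.20G180800 stood at 11.3 RPKM in dehydrated A004A, 13.1 RPKM in A005B, 12.9 RPKM in B010C and 22.2 RPKM in null, against 10.6, 10.5, 13.1 and 10.9 RPKM in the same watered lines. Its log2 change was 0.96 in null and between -0.024 and 0.30 in the transgenic lines, with a mean of 0.33 ± 0.19 (SE, limma adjusted p = 0.149). With exchanged columns the change of Glyma.19G182300 would be 1.29 in null and -0.23 in A005B, and that of Glyma.20G180800 1.01 in null and 0.25 in A005B.

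**Figure D2:**
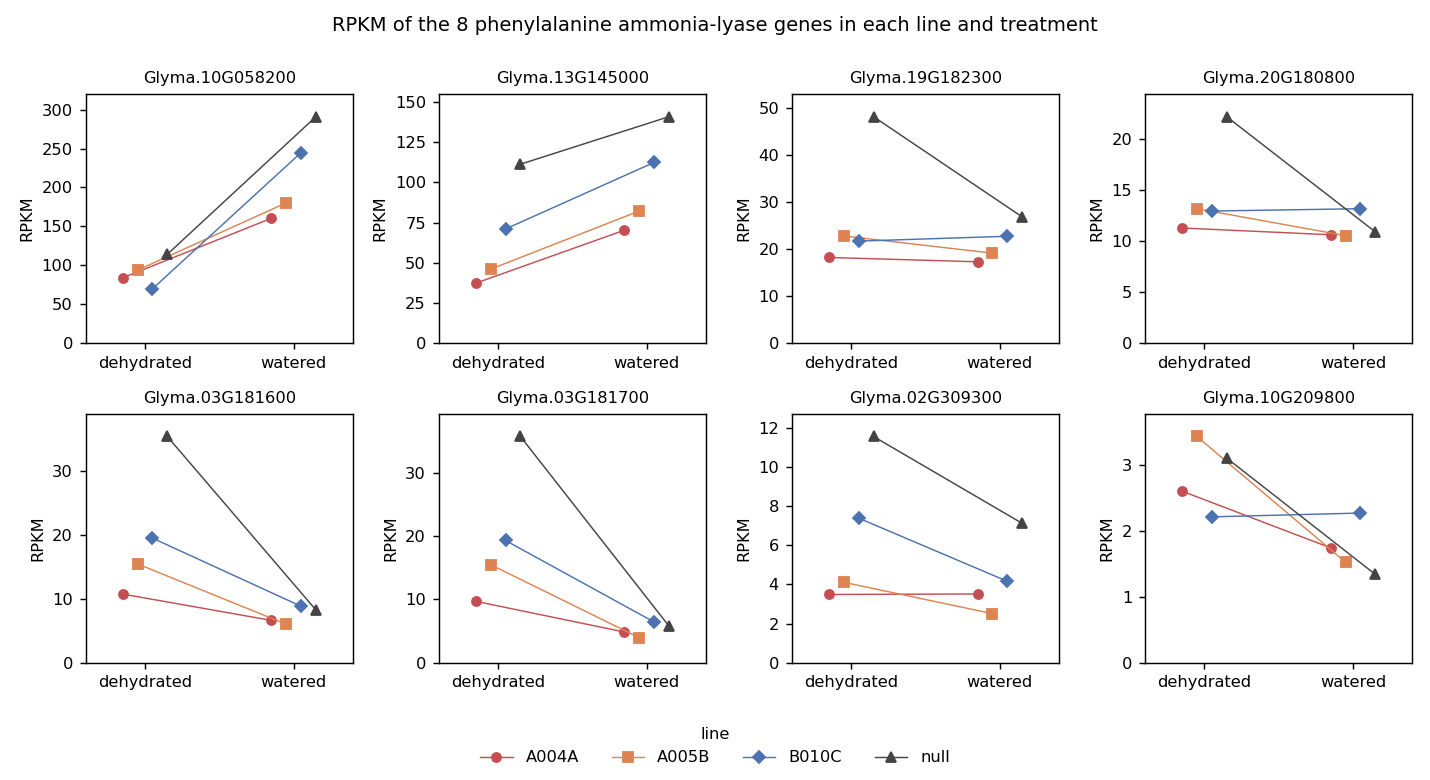
Each panel gives the RPKM of 1 PAL gene on a linear axis that starts at 0, with dehydrated leaves on the left, watered leaves on the right and a line joining the 2 columns of each soybean line. Glyma.10G058200 and Glyma.13G145000 are lower in dehydrated leaves of all 4 lines, Glyma.03G181600 and Glyma.03G181700 are higher in all 4, and null (black triangles) is the highest dehydrated column in 7 of 8 panels.

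The scaling of the columns mattered for the weakest calls. Median-of-ratios scaling moved the median log2 change of all genes from -0.175 to 0.015. With it Glyma.19G182300 (0.49, limma adjusted p = 0.0244) and Glyma.20G180800 (0.55, limma adjusted p = 0.0200) passed too, which made 6 members higher and 2 lower. Of all 34400 genes, 12042 were called higher and 11756 lower under that scaling, against 9882 and 13764 as deposited. Relative to the median of all genes, and over the values as deposited and both other scalings, the change lay between -1.34 and -1.03 for Glyma.10G058200 and between -0.764 and -0.46 for Glyma.13G145000. It lay between 1.33 and 1.42 for Glyma.03G181600 and between 1.76 and 1.82 for Glyma.03G181700. The direction was thus the same under each scaling for these 4 genes.

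By a size rule of 2-fold (1 on the log2 scale) within a line, which has no replicate check, Glyma.03G181600 and Glyma.03G181700 were higher in dehydrated A005B, B010C and null. In those lines 17.7%, 17.6% and 15.8% of all genes were at least 2-fold higher. No member reached this rise in A004A, where 16.7% of genes did. Glyma.10G058200 was at least 2-fold lower in B010C and null, as were 23.4% and 17.9% of all genes. No member was at least 2-fold lower in A004A or A005B, where 28.3% and 23.7% of genes were. The counts for A005B and null depend on the labels. With exchanged columns the change in A005B would be 0.83 for Glyma.03G181600, -1.60 for Glyma.13G145000 and -1.63 for Glyma.10G058200. In A005B 22.7% of all genes would then be at least 2-fold lower. In null, Glyma.19G182300 (1.29), Glyma.02G309300 (1.84) and Glyma.20G180800 (1.01) would also be at least 2-fold higher, as would 16.5% of all genes. Glyma.10G058200 would be at -0.66 in null.

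**Figure D3:**
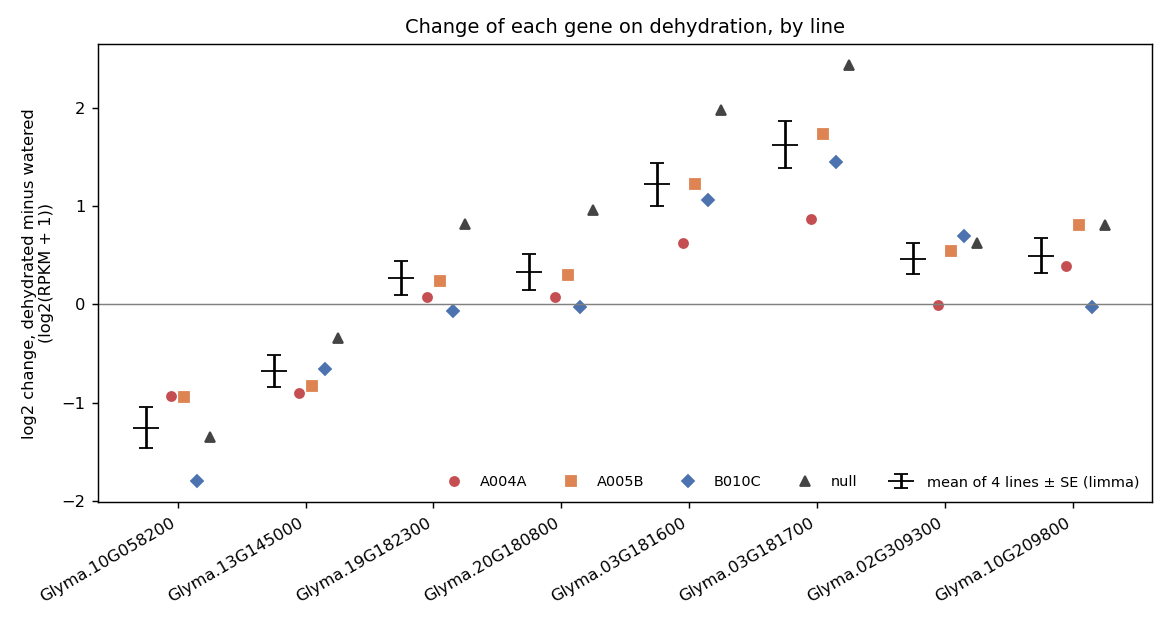
The log2 change of each PAL gene on dehydration, dehydrated minus watered on the log2(RPKM + 1) scale, is shown for each line (coloured points) and as the mean of 4 lines with its SE from limma (black bars), with genes ordered by watered level. The means run from -1.25 for Glyma.10G058200 to 1.62 for Glyma.03G181700, and null is the highest point in 5 of 8 genes.

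Ratios between members within a column do not change when the column is divided by 1 factor, as in median-of-ratios scaling. Quantile normalization can change them, and the ratios given here are of the values as deposited. The ratio of Glyma.10G058200 to Glyma.13G145000 was 2.25 in dehydrated A004A, 2.04 in A005B, 0.979 in B010C and 1.02 in null. In watered leaves it was 2.28 in A004A, 2.19 in A005B, 2.18 in B010C and 2.06 in null. As labelled, the leading members thus kept nearly the same ratio in all watered columns and in dehydrated A004A and A005B, and stood at near-equal levels in dehydrated B010C and null. With the dehydrated null and A005B columns exchanged, the ratio of 1.02 would belong to A005B and that of 2.04 to null. This pair and its split between lines were picked after the values were seen and were not tested.

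The ratio of Glyma.03G181700 to Glyma.03G181600 was 0.901 in dehydrated A004A, 1.00 in A005B, 0.988 in B010C and 1.01 in null, against 0.730, 0.653, 0.725 and 0.698 in the same watered lines. All 4 dehydrated ratios lay above all 4 watered ones. The ratio of Glyma.10G058200 to Glyma.03G181600 was between 3.22 and 7.79 in dehydrated leaves, against 24.2 to 35.3 in watered leaves. The gap between the most abundant member and Glyma.03G181600 was thus narrower in all 4 dehydrated columns than in any watered column. That separation had to follow from the levels given above and is no separate finding. All dehydrated levels of Glyma.10G058200 lay below its watered levels, and all those of Glyma.03G181600 lay above. The pair joins a member that fell with a member that rose, and its ratio was not tested.

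**Figure D4:**
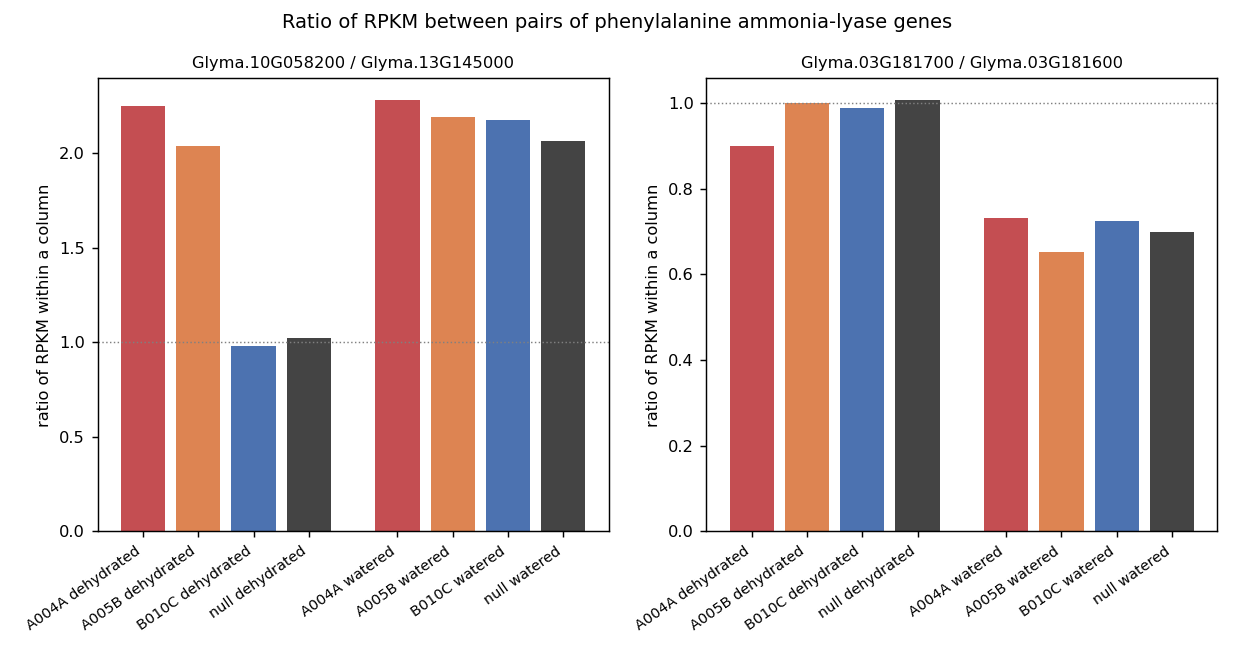
Bars give the ratio of RPKM between 2 PAL genes within each of the 8 columns, dehydrated columns first, with a dotted line at equal levels. Glyma.10G058200 over Glyma.13G145000 is near 1 in dehydrated B010C and null and above 2 in the other 6 columns, and Glyma.03G181700 over Glyma.03G181600 is higher in each dehydrated column (0.901 to 1.01) than in any watered column (0.653 to 0.730).

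The transgenic lines were next compared with null. The level of GmWRKY54 was not checked in any line, so this compares lines and does not measure what over-expression changes. PAL levels were lower in the 3 transgenic lines than in null in dehydrated leaves for 7 of 8 genes, but no member passed the test in a fit that sets 1 line against 3. Across all genes, 45.4% had null above all 3 transgenic lines in dehydrated leaves, and 30.5% after median-of-ratios scaling, where the count of members was again 7. The exception was Glyma.10G209800, which was highest in A005B. The summed family level in dehydrated leaves was 0.464 of that in null in A004A, 0.561 in A005B and 0.586 in B010C. All these comparisons rest on the 1 dehydrated null column. With the dehydrated null and A005B columns exchanged, null would be highest in 1 of 8 members, against 23.3% of all genes, and the summed family level would be 0.827 of that in null in A004A, 1.78 in A005B and 1.04 in B010C.

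In limma, the largest mean differences in dehydrated leaves were those of Glyma.03G181700 and Glyma.03G181600, the members with the largest rises on dehydration. Glyma.03G181700 averaged -1.26 ± 0.37 on the log2 scale (SE, limma adjusted p = 0.262) and Glyma.03G181600 -1.20 ± 0.32 (adjusted p = 0.262). Glyma.19G182300 followed at -1.17 ± 0.22 (adjusted p = 0.218), then Glyma.13G145000 at -1.15 ± 0.40 (adjusted p = 0.294) and Glyma.02G309300 at -1.12 ± 0.36 (adjusted p = 0.278). Glyma.20G180800 differed by -0.79 ± 0.20 (adjusted p = 0.259), Glyma.10G058200 by -0.48 ± 0.33 (adjusted p = 0.506) and Glyma.10G209800 by -0.14 ± 0.24 (adjusted p = 0.795). None of the 8 was called, and of all genes 0.00581% were. At an unadjusted p under 0.05, 6 members were lower, where 11.3% of all genes were. The median difference was -1.14 over the members and -0.158 over all genes, which median-of-ratios scaling moved to -0.019. Under each of the 3 scalings the direction was the same for 7 members, while Glyma.10G209800 lay between -0.144 and 0.008. With the dehydrated null and A005B columns exchanged, 6 members turned positive, between 0.16 and 0.61, and 0 members were lower at an unadjusted p under 0.05. In either direction, 936 of all 34400 genes had such a p with that exchange, against 5041 as labelled.

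Line by line, 5 members were at least 2-fold below null in dehydrated A004A and 5 in dehydrated A005B, where 8.10% and 3.26% of all genes were. In both lines these were Glyma.03G181600, Glyma.03G181700, Glyma.19G182300, Glyma.02G309300 and Glyma.13G145000. With the dehydrated null and A005B columns exchanged, 0 members were at least 2-fold below null in any of the 3 lines, against 0.974% of all genes in A004A, 2.85% in A005B and 2.47% in B010C. In B010C, as labelled, only Glyma.19G182300 passed this size, against 0.985% of all genes. Quantile normalization left 2 such members in A005B, against 2.52% of all genes. Median-of-ratios scaling left 4 in A005B, against 2.76% of all genes, and 0 in B010C, against 0.564%. Glyma.10G058200, the most abundant member, differed from null by -0.44 in A004A, -0.28 in A005B and -0.71 in B010C on the log2 scale. B010C was thus farthest from null, whereas for Glyma.13G145000 A004A was farthest (-1.56) and B010C nearest (-0.64).

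**Figure D5:**
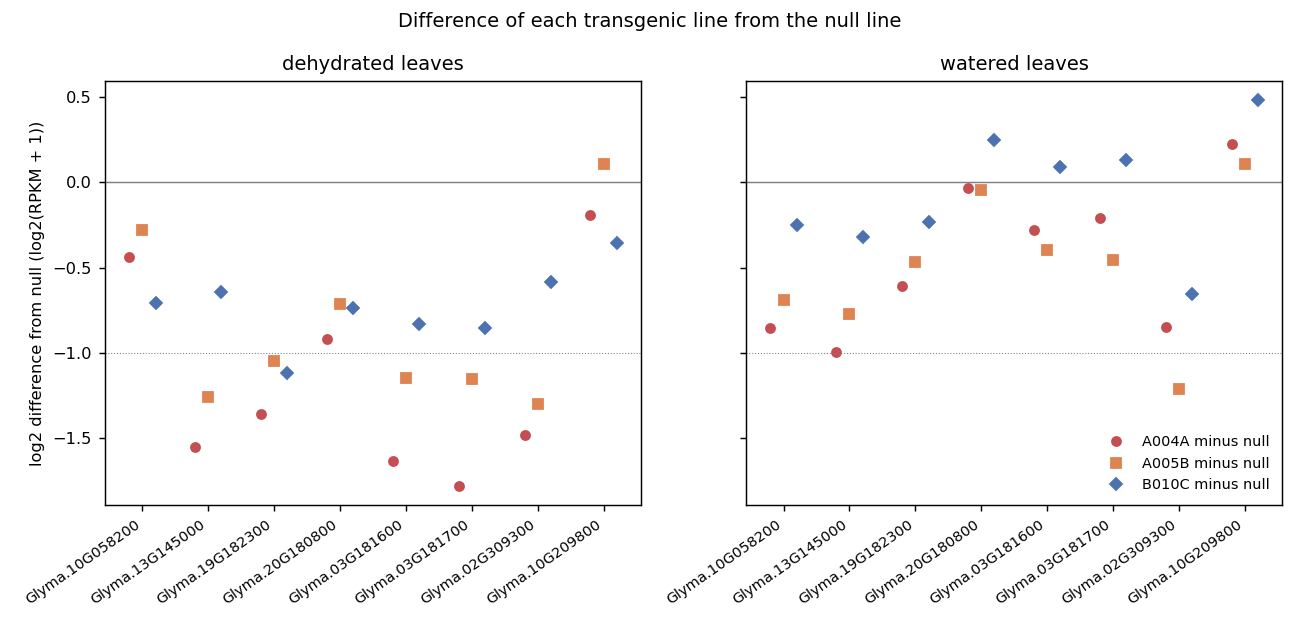
Points give the log2 difference of each transgenic line from null for each PAL gene, with dehydrated leaves in the left panel and watered leaves in the right panel, on the log2(RPKM + 1) scale with a dotted line at a 2-fold decrease. In dehydrated leaves all points but that of A005B for Glyma.10G209800 lie below 0, and the lowest is A004A for Glyma.03G181700 at -1.78. In watered leaves the points lie between -1.21 and 0.48.

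In watered leaves the differences from null were smaller. Limma called 0% of all genes and no member (adjusted p = 1 for each), with 1103 genes at an unadjusted p under 0.05. The mean log2 difference was -0.90 ± 0.36 (SE) for Glyma.02G309300, -0.70 ± 0.40 for Glyma.13G145000 and -0.60 ± 0.33 for Glyma.10G058200. It was -0.44 ± 0.22 for Glyma.19G182300 and between -0.20 and 0.27 for the other 4 members. At an unadjusted p under 0.05 only Glyma.02G309300 was lower, as were 1.31% of all genes. Null lay above all 3 transgenic lines in 4 members, against 28.9% of all genes. Only Glyma.02G309300 in A005B was at least 2-fold below null; of all genes 1.54% were in A004A, 1.25% in A005B and 1.09% in B010C.

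Most members shared an order of the lines in watered leaves. In watered leaves A004A and A005B were both below null and B010C in 7 of 8 members, all but Glyma.10G209800, whereas 17.2% of all genes showed that order. In dehydrated leaves the order was seen in 4 of 8 members, against 31.4% of all genes, and after median-of-ratios scaling in 6 of 8, against 30.3%. With the dehydrated null and A005B columns exchanged, 0 of 8 members showed the dehydrated order, against 8.16% of all genes. After quantile normalization 6 members showed the watered order, against 18.1% of all genes, and after median-of-ratios scaling 7, against 20%. This order was noticed in the values and is given as a description. With the watered null and A005B labels exchanged, 0 members showed the watered order, against 20.7% of all genes. Then 0 members had null highest in watered leaves, against 30.6% of all genes. The mean differences of the 6 members lower in watered transgenic lines turned positive with that exchange, between 0.19 and 0.71 on the log2 scale.

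Lines lay farther apart in dehydrated than in watered leaves for 6 of 8 members, all but Glyma.10G058200 and Glyma.10G209800. On the log2 scale, the gap between the highest and the lowest line had a median of 1.42 over the members in dehydrated leaves and 0.60 in watered leaves. Over 19589 genes averaging 5 RPKM or more the medians were 0.595 and 0.368. In dehydrated leaves the gap was widest in Glyma.03G181700 (1.78) and narrowest in Glyma.10G209800 (0.46).

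Whether the lines differed in the response itself was tested as the response of the transgenic lines minus that of null. No member passed, and 0.00291% of all genes did. The difference was -1.01 ± 0.46 on the log2 scale (SE, limma adjusted p = 0.535) for Glyma.03G181600 and -1.09 ± 0.52 (adjusted p = 0.541) for Glyma.03G181700. It was -0.85 ± 0.28 for Glyma.20G180800 (adjusted p = 0.494) and -0.74 ± 0.32 for Glyma.19G182300 (adjusted p = 0.523). For the other 4 members it lay between -0.46 and 0.12. At an unadjusted p under 0.05, 1 member, Glyma.20G180800, was lower, where 7.22% of all genes were. In the fit that pairs the columns of a line it was 3 members, with Glyma.03G181600 (unadjusted p = 0.0263, adjusted p = 0.577, limma) and Glyma.03G181700 (unadjusted p = 0.0357, adjusted p = 0.577) besides. Over all alternatives the count lay between 0, with the dehydrated columns exchanged, and 5, with the watered columns exchanged. The number of all genes at such a p, in either direction, also varied. Of 34400 genes it was 3289 in the main fit and 2961 in the paired fit. It was 642 with the dehydrated and 2168 with the watered columns exchanged. The response of null was above that of all 3 transgenic lines in 5 members, against 40.0% of all genes. This was so in 7 members with the watered null and A005B columns exchanged, against 37.1% of all genes. With the dehydrated ones exchanged it was so in 1 member, against 27.1%. With the dehydrated exchange the difference was positive for 7 members, all but Glyma.10G209800, and none passed.

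The genes whose pattern was most like the mean log2 level of the 8 members were sought among 19582 other genes with a mean of at least 5 RPKM. They were Glyma.06G147800 (Pearson r = 0.98 over 8 columns), Glyma.09G246600 (r = 0.98), Glyma.17G109800 (r = 0.97), Glyma.10G269400 (r = 0.97) and Glyma.15G203900 (r = 0.97). The 8 columns share 2 treatments and 4 lines, and the best of many genes were picked, so these values only describe the pattern. Glyma.17G109800 stood at 4.42 RPKM in dehydrated A004A, 6.44 RPKM in A005B, 7.73 RPKM in B010C and 13.2 RPKM in null, against 4.20, 4.34, 5.54 and 5.87 RPKM in the same watered lines. In all 5 genes the dehydrated null column was the highest of the 8 columns, as it was for the mean of the PAL genes. This follows largely from picking them by likeness to that mean. The mean joins members that moved in opposite directions, and in Glyma.10G058200 and Glyma.13G145000 the watered null column was the highest.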

How the data were processed

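The deposited table holds RPKM values that the authors computed; per the submitters' processing notes reads were aligned with TopHat, with no version. The sources used here do not give how reads were counted, on which build and annotation, or how 2 samples became 1 column. Columns were tied to groups by name, and 0 were left over. Among genes whose highest value was below 0.3 RPKM, the most frequent ratio between columns (steps of 0.003 on the log2 scale) held 0.275% to 2.96% of genes over 28 pairs, so whole reads were not recovered and no count model was used.

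Values were tested as log2(RPKM + 1) with limma 3.58.1 in R 4.3.3 (trended empirical Bayes, two-sided, Benjamini-Hochberg over 34400 genes, threshold 0.05). Dehydration was fitted with line and treatment terms. The transgenic lines were set against null with 1 mean per group, where the lone null column is assumed to vary as they do. The scripts were checked on simulated columns. Alternatives were a pseudocount of 0.1, no filter, a mean of at least 5 RPKM, median-of-ratios scaling, quantile normalization, leaving out each line, no trend, pairing the columns of a line, and exchanged null and A005B columns in 1 treatment. The members and comparisons were chosen with earlier results of these data known. All 8 members are named, and other genes only as the 5 most alike in pattern. The reference gene table, of assembly Glycine_max_v4.0, matched 0 identifiers, so lists of other pathway genes, marker checks, protein comparisons and promoter searches were not made.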

Additional observations from a re-analysis of the deposited data

Results flagged for a closer look

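In 4 members 1 line moved against the other 3 on dehydration, and these differences between lines were not tested. For Glyma.19G182300 the log2 change in B010C was -0.0644, for Glyma.10G209800 it was -0.0255 and for Glyma.20G180800 it was -0.0238, while the other 3 lines were positive. For Glyma.02G309300 the change in A004A was -0.0084, against 0.54 to 0.70 in the other lines. Each of these opposite values is close to 0. For Glyma.20G180800 the watered level of B010C, 3.82 on the log2(RPKM + 1) scale, stood far above the closely spaced other lines by Dixon's criterion; 24 sets of 4 lines were examined, and chance alone marks about 1 in 20.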

How the results depend on the processing

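No paired analysis was possible because the columns carry no replicate numbers, as far as pairing by replicate goes; the columns of a line were paired in the dehydration fit and in 1 alternative for the difference of responses. For dehydration, Glyma.10G058200, Glyma.03G181600 and Glyma.03G181700 kept direction and call under all alternatives. With a mean of at least 5 RPKM, 13891 of 19589 tested genes were called, against 23646 of 34400 in the main fit. Glyma.10G209800 (mean below 5 RPKM) was not tested there. PAL calls lost: with no filter, Glyma.02G309300 (0.47) and Glyma.10G209800 (0.50); with the null and A005B columns exchanged in either treatment, Glyma.02G309300 (0.47) and Glyma.13G145000 (-0.68). Median-of-ratios scaling added Glyma.19G182300 (0.49) and Glyma.20G180800 (0.55). Leaving out a line gave 0.39 to 0.62 for Glyma.02G309300 and 0.39 to 0.67 for Glyma.10G209800. Both calls were also lost without A005B and without null, that of Glyma.02G309300 without B010C and that of Glyma.10G209800 without A004A.

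For transgenic lines against null in watered leaves, 0 genes were called, 1 with a pseudocount of 0.1 or no trend and 40 with no filter. In dehydrated leaves 2 were called, 57 with no filter, 1 with a mean of at least 5 RPKM or exchanged watered columns, 0 with exchanged dehydrated columns, 4 after median-of-ratios scaling, and 0 to 14 without a line. For the difference of responses 1 was called, 50 with no filter, 0 after quantile normalization, with a mean of at least 5 RPKM, with the columns of a line paired or either exchange, and 0 to 3 without a line. No member was called in any of these.

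Reversed in sign, none of them called: watered differences with exchanged watered columns for Glyma.03G181600 (0.33), Glyma.03G181700 (0.43), Glyma.10G058200 (0.32), Glyma.19G182300 (0.19), Glyma.02G309300 (0.71) and Glyma.13G145000 (0.33), and on leaving out a line for Glyma.20G180800 (-0.041 without B010C to 0.11 without A005B); the dehydrated difference of Glyma.10G209800 after quantile normalization (0.008); and the difference of responses for Glyma.10G058200 (-0.024 without A004A to 0.41 without B010C, -0.02 without A005B, -0.80 with exchanged watered columns) and for Glyma.02G309300 after quantile normalization (0.075). With exchanged dehydrated columns, the dehydrated differences of Glyma.03G181600 (0.33), Glyma.03G181700 (0.28), Glyma.19G182300 (0.22), Glyma.02G309300 (0.61), Glyma.13G145000 (0.53) and Glyma.20G180800 (0.16) and the differences of responses of the same genes (0.52, 0.45, 0.66, 1.51, 1.22 and 0.10) turned positive. Causes were not tested. Column sums of PAL RPKM moved by less than the SD between lines under both scalings. That SD was 90.6 RPKM in dehydrated and 100.1 RPKM in watered leaves, which is not small beside the differences between treatments. A move within it therefore does not show that those differences hold. Read depth is unknown, so counting error could not be set beside the low values of Glyma.10G209800 and Glyma.02G309300.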
